A study of Mus musculus with 6 samples.

Results

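The D-type cyclins, the CDK inhibitors of the CIP/KIP and INK4 families, and the transcription factor *Myc* set the pace of the G1 phase, in which a cell commits to divide or not. The 10 genes were chosen by name: *Ccnd1*, *Ccnd2*, *Ccnd3*, *Cdkn1a*, *Cdkn1b*, *Cdkn1c*, *Cdkn2b*, *Cdkn2c*, *Cdkn2d* and *Myc*. Of these, 9 were measured, among 24016 genes in all, while the transcript level of *Cdkn2b* was not analysed here. After corticosterone, *Myc* and *Ccnd3* rose, *Ccnd2*, *Cdkn1a*, *Cdkn1b* and *Cdkn2d* fell, and *Ccnd1*, *Cdkn1c* and *Cdkn2c* did not pass the test. The calls of *Ccnd3* and *Cdkn1b* were lost in most fits that left out 1 library. Only that of *Myc* held when the trend of the spread with the level of the genes was left out. Of the 8 measured members with more than a few reads, *Myc* had the largest change, a log2 fold change of 0.50 (SE 0.05, n = 3 per group).

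D-type cyclins are made when growth factors act on a cell. They bind the kinases CDK4 and CDK6, which phosphorylate the retinoblastoma protein and so free the E2F factors that turn on genes of DNA replication. INK4 proteins bind CDK4 and CDK6 themselves, whereas CIP/KIP proteins bind cyclin-CDK complexes and block above all CDK2. MYC pairs with MAX to turn on genes of growth, ribosome assembly and nucleotide synthesis. In the osteoblast lineage, cells slow their divisions as they differentiate, and cyclin and inhibitor levels are among the things that shift in that step.

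The libraries come from MC3T3-E1 subclone 4, a wild-type preosteoblast line from mouse calvaria, so that all cultures are 1 cell line of 1 genotype (labelled WT). Cells were differentiated for 6 days with β-glycerophosphate (10 mM) and ascorbic acid (50 μg/ml). For the last 24 h the medium held vehicle or corticosterone at 100 nM. Corticosterone is the chief glucocorticoid hormone in mice. The treatment text of every sample, vehicle included, lists 10 nM calcitriol, the active form of vitamin D. That text is the same for all samples and the study's RNA-seq methods name no calcitriol, so whether the vehicle cultures held it is not certain. Each group had 3 libraries, described as biological replicates. The p-values rest on the spread between libraries, estimated with help from all genes of like level. The labels give passages 6 to 12 for every library, with 4 to 10 in the growth text, and no batch that differs between libraries. The study's methods give another passage range. The comparison asks which transcripts the hormone changed in osteoblasts.

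Each value is a normalized count, that is, the reads counted on a gene divided by 1 size factor per library. Reads on genes ranged from 16020401 to 25638645 per library, and all 3 corticosterone libraries were shallower than any vehicle library. A count of 3 reads, taken as the floor, equals 2.32 to 3.84 normalized counts. Known glucocorticoid targets checked the labels: all 6 of the list rose, with *Sgk1*, a kinase gene, at 1302 ± 117 (SD, n = 3) with vehicle and 8736 ± 499.5 with corticosterone. Of 8 osteoblast markers, 7 fell and *Spp1* rose. Their sum ranged from 1357311 to 1403415 normalized counts with vehicle and from 1182183 to 1237729 with corticosterone. Most of that sum comes from the type I collagen genes *Col1a1* and *Col1a2*, so it hardly reflects the other markers. In bulk RNA, fewer cells of a type and less RNA per cell cannot be told apart. The vehicle 2 library stood apart from the other vehicle libraries. Of the 8 members with a mean of at least 100 it was the highest vehicle library in 6, and it was also highest in 15 of 16 p53 targets, lowest in 15 of 16 Myc targets and lowest in 17 of 20 proliferation genes. In the proliferation genes vehicle 1 departed about as far, as the highest vehicle library in 19 of the 20. Its median log2 difference from the other vehicle libraries was 0.14 there, and that of vehicle 2 was -0.134. Values without vehicle 2 stand beside the members and the list genes that vehicle 2 moved.

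Groups were compared by limma's moderated test on the log2 scale, after adding 0.1 to each normalized count, and p-values were adjusted over all genes. A gene is said to rise or fall at an adjusted p under 0.05. By that rule 4010 of the 24016 genes changed, or 16.7%, of which 8.49% of all genes were higher and 8.2% were lower. Of the 9 measured members, 2 were higher and 4 lower, or 66.7%. Among the 10558 genes with a mean of at least 100, a class that holds 8 of the 9, the share past the test was 32.6%. No member passed the stricter rule that also asks for an absolute log2 fold change over 1, which 2.78% of all genes passed. In 7 of the 9 members the groups did not overlap, against 29.6% of all genes. The median log2 fold change was -0.17 over the 9 measured members and -0.01 over all genes.

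Promoter sequence was at hand for 6 members, from RefSeq on GRCm38.p6, as 250 bases before each start site. These were *Cdkn1a*, *Cdkn1b*, *Cdkn2b*, *Cdkn2c*, *Cdkn2d* and *Ccnd3*, so that *Cdkn2b* enters the motif counts without a transcript level. The sequences below are those of the CIP/KIP gene and the INK4 gene with the larger falls and of the D-type cyclin that rose, so that the motif content of genes moving in opposite directions can be read. *Cdkn1a* and *Ccnd3* each have a pair of start sites. Sequences run 5′ to 3′ on the strand of the gene. Capitals mark GC boxes (GGGCGG on either strand, which reads CCGCCC on the other), the usual site of SP1, or, in the upstream *Cdkn1a* window, the match to the p53 response element.
Cdkn1a, upstream start, chr17:29090729-29090978, plus strand: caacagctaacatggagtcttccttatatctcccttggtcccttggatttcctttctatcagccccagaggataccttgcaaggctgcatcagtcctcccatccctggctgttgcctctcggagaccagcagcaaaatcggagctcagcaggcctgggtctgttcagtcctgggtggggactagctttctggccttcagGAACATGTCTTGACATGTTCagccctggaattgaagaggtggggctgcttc
Cdkn1a, downstream start, chr17:29093519-29093768, plus strand: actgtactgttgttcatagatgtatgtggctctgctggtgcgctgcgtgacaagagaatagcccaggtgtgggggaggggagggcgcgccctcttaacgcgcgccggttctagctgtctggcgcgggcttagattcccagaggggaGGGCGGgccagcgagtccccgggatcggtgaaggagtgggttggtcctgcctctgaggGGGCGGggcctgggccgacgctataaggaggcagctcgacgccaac
Cdkn2d, chr9:21291210-21291459, minus strand: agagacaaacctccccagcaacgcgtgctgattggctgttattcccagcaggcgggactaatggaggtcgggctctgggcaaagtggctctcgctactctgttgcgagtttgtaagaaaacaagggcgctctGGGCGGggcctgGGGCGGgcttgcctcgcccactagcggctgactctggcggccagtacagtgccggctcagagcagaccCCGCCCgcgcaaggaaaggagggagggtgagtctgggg
Ccnd3, upstream start, chr17:47504801-47505050, plus strand: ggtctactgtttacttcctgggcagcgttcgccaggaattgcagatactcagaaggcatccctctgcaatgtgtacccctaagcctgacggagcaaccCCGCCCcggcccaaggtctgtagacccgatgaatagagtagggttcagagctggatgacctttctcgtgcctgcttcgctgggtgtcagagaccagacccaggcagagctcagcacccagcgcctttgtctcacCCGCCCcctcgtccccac
Ccnd3, downstream start, chr17:47593217-47593466, plus strand: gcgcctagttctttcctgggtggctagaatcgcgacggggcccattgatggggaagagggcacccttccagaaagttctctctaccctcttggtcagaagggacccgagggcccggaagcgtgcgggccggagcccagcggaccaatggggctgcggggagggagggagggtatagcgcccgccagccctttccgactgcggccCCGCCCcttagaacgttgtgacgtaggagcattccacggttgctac

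The upstream *Cdkn1a* window held a 20-base match to the p53 response element, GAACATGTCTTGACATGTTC, from -51 to -32 relative to the start site. It differs from the consensus by 1 base, an allowance made after this sequence had been seen, and 15 of 32851 promoter windows, or 0.0457%, hold a match so close. GC boxes were the most common of the sought motifs in the member windows, as they were over all windows. The downstream *Cdkn1a* window held 2, beginning at -104 and -46. The *Cdkn2d* window held 3, beginning at -118, -106 and -38. In *Ccnd3*, GC boxes began at -152 and -18 of the upstream start and at -46 of the downstream start. Among the windows not printed, that of *Cdkn1b* held 1, at -61, and that of the upstream *Cdkn2c* start held 3, at -95, -51 and -40. None lay in the windows of the upstream *Cdkn1a* start, the downstream *Cdkn2c* start or *Cdkn2b*. A GC box lies in 32.7% of all windows. Member windows with a GC box had a GC content of 59.6% to 77.2%, against a median of 52.4% over all windows.

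Motifs of the hormone receptor and of MYC were sought in the same 9 member windows, on both strands. The full glucocorticoid response element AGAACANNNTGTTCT was found in none of them and lies in 0.00913% of all windows. Its hexamer AGAACA, found in 16.1% of all windows, lay in 1 member window, at -222 of the upstream *Cdkn2c* start. The E-box CACGTG, which MYC-MAX binds, lies in 6.02% of all windows and in none of these 9. These are matches of letters in short windows only. Promoters of *Ccnd1*, *Ccnd2*, *Cdkn1c* and *Myc* were not analysed here.

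*Ccnd2*, on chromosome 6 (127125162 to 127152193, minus strand, ENSMUSG00000000184), encodes cyclin D2. Its normalized counts were 18503, 21239.7 and 19070.4 in vehicle libraries 1 to 3 and 16069, 16035 and 16569 in corticosterone libraries 1 to 3. All 3 corticosterone libraries lay below every vehicle library, and vehicle 2 was the highest of the 6. *Ccnd2* fell by 17.2%, from 19604 ± 1445 to 16225 ± 299 (SD, n = 3), a log2 fold change of -0.27 (SE 0.05, 95% interval -0.37 to -0.17, adjusted p = 0.00051). Without vehicle 2 the log2 fold change was -0.21 (adjusted p = 0.0014). *Ccnd2* passed without each library in turn, with limma adjusted p from 0.0014 to 0.022.

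*Ccnd1*, on chromosome 7 (144929931 to 144939925, minus strand, ENSMUSG00000070348), encodes cyclin D1, the D-type cyclin most often linked to growth factor signals. The vehicle libraries held 4571, 4791 and 4603 normalized counts and the corticosterone libraries 4507, 4306 and 4467. The groups did not overlap, yet they lay close together. The log2 fold change of -0.07 (SE 0.04, 95% interval -0.16 to 0.01) missed the threshold, with an adjusted p of 0.3. Reads from the opposite-strand neighbour *LTO1*, listed at 275 to 328 normalized counts, can add to *Ccnd1* if strand was not used in counting, since 23.4% of the exon bases of *Ccnd1* lie under it.

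*Ccnd3*, on chromosome 17 (47505051 to 47599691, plus strand, ENSMUSG00000034165), encodes cyclin D3, which in several lineages stays on as cells leave the cycle. It was listed at 1807, 1579 and 1898 normalized counts with vehicle and at 2102, 1964 and 2083 with corticosterone. Every corticosterone library lay above every vehicle library, by the least margin between vehicle 3 and corticosterone 2. *Ccnd3* rose by 16.4%, from 1761 ± 164 to 2049 ± 74.8, a log2 fold change of 0.22 (SE 0.06, 95% interval 0.09 to 0.35, adjusted p = 0.018). This call was lost without vehicle 1 (0.24, adjusted p = 0.058), vehicle 2 (0.15, adjusted p = 0.078), corticosterone 1 (0.20, adjusted p = 0.12) or corticosterone 3 (0.21, adjusted p = 0.15). It was also lost when libraries were scaled to the same total (0.18, adjusted p = 0.053). The opposite-strand gene *Bysl* shares 4.11% of the exon bases of *Ccnd3* and was listed at 925 to 1054 normalized counts with vehicle and 1074 to 1165 with corticosterone, so a part of the *Ccnd3* reads could be its own if strand was not used.

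*Cdkn1a*, on chromosome 17 (29090976 to 29100727, plus strand, ENSMUSG00000023067), encodes p21, the CIP/KIP inhibitor that p53 turns on after DNA damage. Vehicle libraries held 8671, 10978 and 8915 normalized counts, and corticosterone libraries 7241, 7279.6 and 7471. The corticosterone libraries lay within a narrow band below all vehicle libraries, while vehicle 2 lay far above the other two. *Cdkn1a* fell by 23.0%, from 9521 ± 1267 to 7330.5 ± 123, a log2 fold change of -0.37 (SE 0.07, 95% interval -0.51 to -0.23, adjusted p = 0.00063). Without vehicle 2, in which the other p53 targets were also high, the log2 fold change was -0.26 (adjusted p = 0.00045). *Cdkn1a* passed without each library in turn, with limma adjusted p from 0.00045 to 0.032.

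*Cdkn1b*, on chromosome 6 (134920401 to 134925513, plus strand, ENSMUSG00000003031), encodes p27, whose protein is controlled largely by degradation. It was listed at 3787, 4056 and 3684 normalized counts with vehicle and at 3368, 3672 and 3221 with corticosterone. Vehicle 3 and corticosterone 2 differed by little, but the groups did not overlap. *Cdkn1b* fell by 10.98%, from 3842 ± 192 to 3421 ± 230.1, a log2 fold change of -0.17 (SE 0.05, 95% interval -0.28 to -0.06, adjusted p = 0.036). It no longer passed without vehicle 1 (-0.18, adjusted p = 0.1), vehicle 2 (-0.13, adjusted p = 0.16), vehicle 3 (-0.20, adjusted p = 0.1), corticosterone 1 (-0.16, adjusted p = 0.16) or corticosterone 3 (-0.13, adjusted p = 0.23).

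*Cdkn1c*, on chromosome 7 (143458339 to 143461050, minus strand, ENSMUSG00000037664), encodes p57, an imprinted CIP/KIP inhibitor. It was at the edge of detection, with 0, 4.63 and 5.17 normalized counts in vehicle libraries 1 to 3, against 3.21, 1.104 and 0 with corticosterone. Behind these lie 0 to 6 reads in a vehicle library and 0 to 3 in the others, near or under the floor, and 30.7% of the exon bases are shared with an opposite-strand gene, Gm44732. A difference was not detectable at this depth (log2 fold change -0.88, SE 1.68, 95% interval -4.45 to 2.68, adjusted p = 0.8).

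Of the INK4 genes, *Cdkn2d*, on chromosome 9 (21288410 to 21291407, minus strand, ENSMUSG00000096472), encodes p19INK4d. Its normalized counts were 568, 516 and 536 with vehicle and 383, 394 and 438 with corticosterone. The groups lay well apart, and here vehicle 2 was the lowest vehicle library. *Cdkn2d* fell by 25.0%, from 540.2 ± 26.3 to 405 ± 28.7, a log2 fold change of -0.42 (SE 0.07, 95% interval -0.57 to -0.26, adjusted p = 0.00067). It passed the test without each library in turn, with log2 fold changes from -0.47 to -0.38.

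*Cdkn2c*, on chromosome 4 (109660876 to 109667189, minus strand, ENSMUSG00000028551), encodes p18INK4c. It was listed at 2521, 2647 and 2308 normalized counts with vehicle and at 2339, 2467 and 2483 with corticosterone. The groups overlapped, with vehicle libraries at both ends. The log2 fold change of -0.03 (SE 0.05, adjusted p = 0.74) had a 95% interval of -0.15 to 0.08.

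*Myc*, on chromosome 15 (61985391 to 61990374, plus strand, ENSMUSG00000022346), held 984, 1060.5 and 1060.2 normalized counts with vehicle and 1446, 1462 and 1469.9 with corticosterone. All corticosterone libraries lay far above all vehicle libraries, and the libraries within a group were close. *Myc* rose by 41.0%, from 1035 ± 43.8 to 1459.6 ± 12.0, a log2 fold change of 0.50 (SE 0.05, 95% interval 0.39 to 0.61, adjusted p = 2.5e-06). Of the 10558 genes with a mean of at least 100, 8.98% changed by more. It passed the test without each library in turn, with log2 fold changes from 0.46 to 0.51. The vehicle 2 library, which stood apart in the Myc targets, did not stand apart in *Myc* itself.

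Gene by gene, an exact permutation test of 3 against 3 libraries cannot go below p = 0.1, two-sided. It gave that value in the 7 members whose groups did not overlap and 0.6 in *Cdkn1c* and *Cdkn2c*. The limma calls rest on a spread estimated with help from all genes of like level. When this trend of the spread with the level was left out, *Myc* passed (adjusted p = 0.016), whereas *Ccnd2* (adjusted p = 0.14), *Ccnd3* (0.28), *Cdkn1a* (0.16), *Cdkn1b* (0.32) and *Cdkn2d* (0.059) did not.

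**Figure D1:**
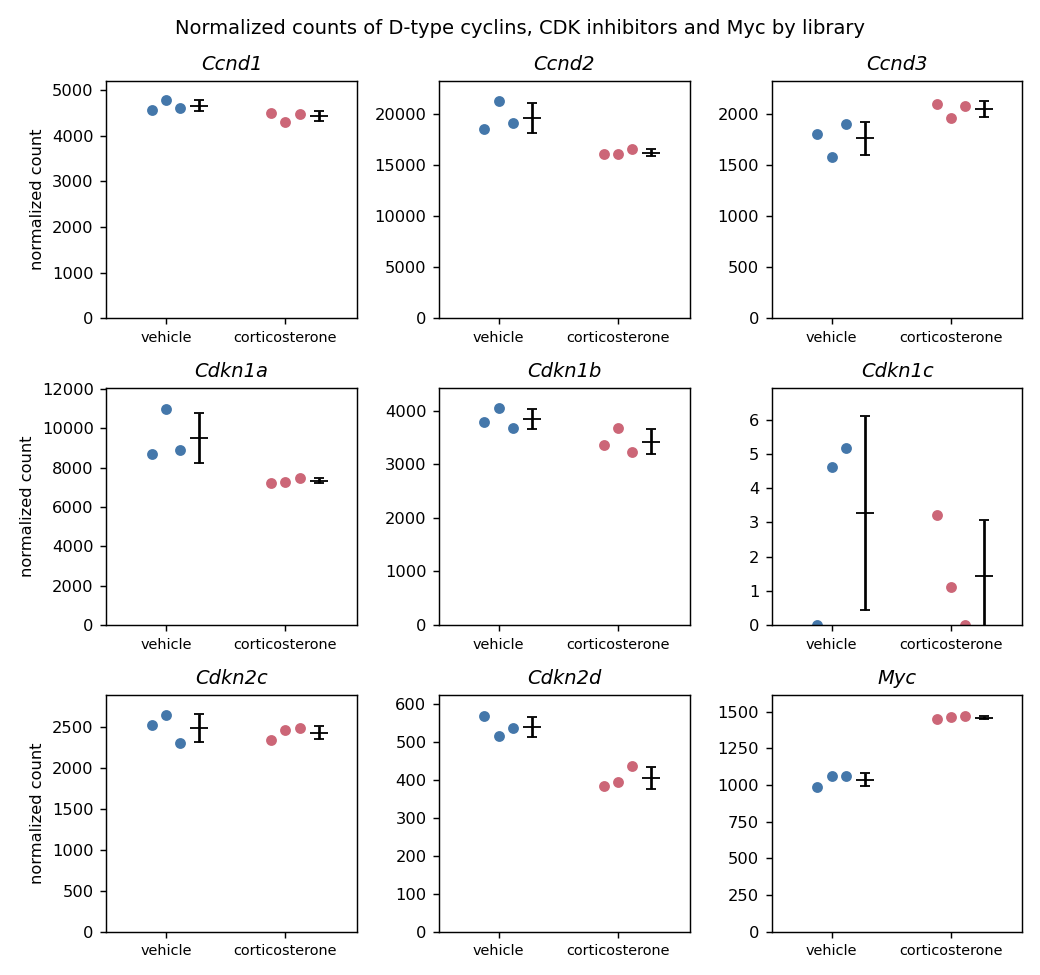
Normalized counts (vertical axes, from 0) of the 9 measured members in the 3 vehicle (blue) and 3 corticosterone (red) libraries, ordered 1 to 3 from left to right; bars show the mean ± SD. *Myc* and *Ccnd3* sit higher in all 3 corticosterone libraries, *Ccnd2*, *Cdkn1a*, *Cdkn1b* and *Cdkn2d* lower, and *Cdkn1c* stays under 6 normalized counts in every library.

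**Figure D2:**
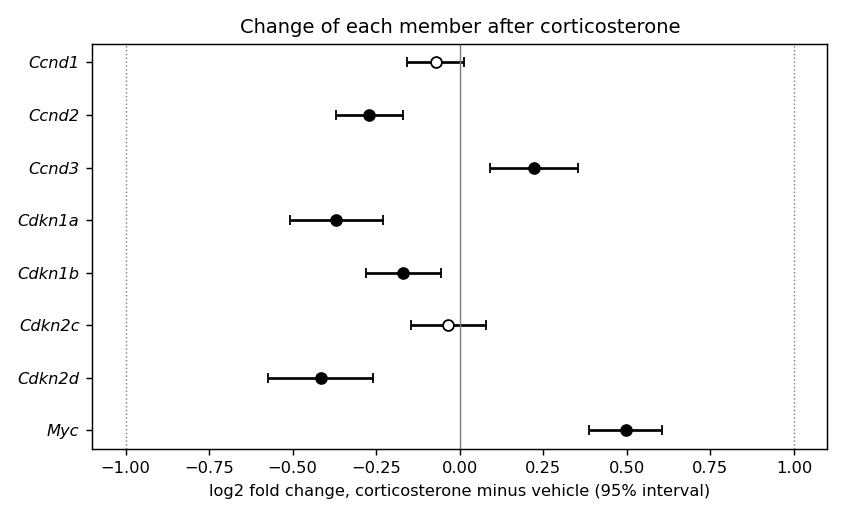
Log2 fold change (horizontal axis, corticosterone minus vehicle) of the 8 members with more than a few reads, with 95% intervals from limma; filled points passed an adjusted p of 0.05, open points did not, and dotted lines mark a log2 fold change of 1 in either direction. The intervals of all 8 lie inside the dotted lines, and those of *Ccnd1* and *Cdkn2c* span 0.

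Levels can be compared between genes only per length, here as the mean normalized count per kilobase of all annotated exons. With vehicle, *Cdkn1a* stood highest at 2680 ± 357 per kilobase (SD, n = 3), followed by *Ccnd2* at 2084 ± 154. The next 3 were *Ccnd1* at 988.5 ± 25.2, *Cdkn2c* at 928 ± 63.9 and *Cdkn1b* at 844 ± 42.2, where each neighbouring pair overlapped between libraries. *Myc* (381 ± 16.1), *Cdkn2d* (343 ± 16.7) and *Ccnd3* (201 ± 18.7) followed, with *Cdkn1c* at 1.603 ± 1.39. So p21 and cyclin D2 were the leading inhibitor and D-type cyclin transcripts of these cells.

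With corticosterone the order of these levels, per kilobase of all exons, was the same. *Cdkn1a* stood at 2063 ± 34.7 per kilobase and *Ccnd2* at 1724 ± 31.8. *Ccnd1* (940.1 ± 22.6) and *Cdkn2c* (905 ± 29.4) again overlapped, and *Cdkn1b* lay at 751.5 ± 50.5. *Myc* at 537 ± 4.41 moved closer to *Cdkn1b* and away from *Cdkn2d* (257 ± 18.2) and *Ccnd3* (233.5 ± 8.52). The order of the lower genes depends on the length used. Per kilobase of the longest transcript alone, *Ccnd3* (456.5 ± 42.6) and *Myc* (443 ± 18.75) overlapped with vehicle, above *Cdkn2d* (379.6 ± 18.5). By that length *Myc* (624 ± 5.12) stood above *Ccnd3* (531 ± 19.4) with corticosterone, so the order of these means was not the same in both groups.

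**Figure D3:**
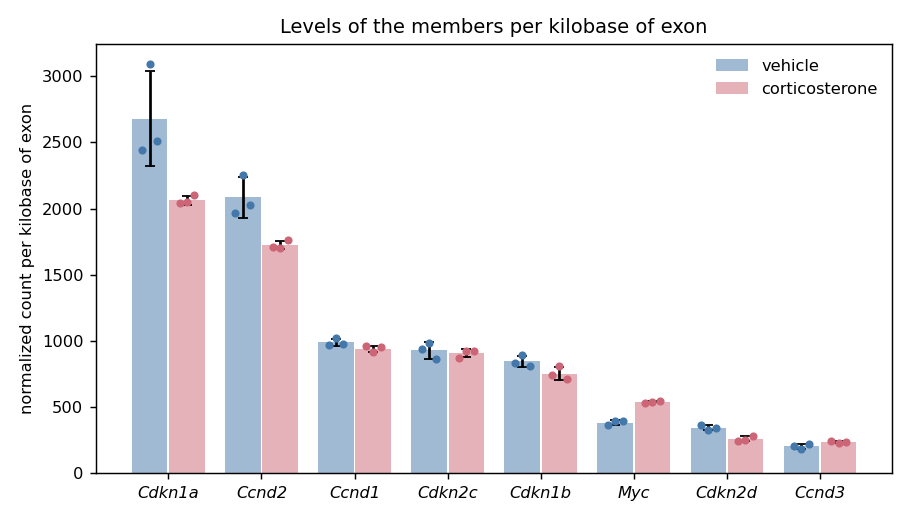
Normalized count per kilobase of exon (vertical axis, from 0) of 8 members; bars are group means, lines the SD over 3 libraries and points the libraries. *Cdkn1a* and *Ccnd2* lead in both groups, and the vehicle bars of *Cdkn1a* and *Ccnd2* carry the widest spread, set by vehicle 2.

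Within the D-type cyclins, the share of each gene in their summed level per kilobase shifted. *Ccnd2* made up 62.6%, 65.3% and 62.9% of the sum in vehicle libraries 1 to 3 and 58.8%, 59.95% and 59.8% in corticosterone libraries 1 to 3. *Ccnd3* made up 6.55%, 5.21% and 6.72% with vehicle and 8.25%, 7.87% and 8.05% with corticosterone. *Ccnd2* thus remained the main D-type cyclin transcript, with a smaller share in every corticosterone library. The share of *Ccnd1* ranged from 29.45% to 30.9% with vehicle and from 32.2% to 32.95% with corticosterone. These shares use the length of all annotated exons and depend on it. Vehicle means by that length were 988.5 (*Ccnd1*), 2084 (*Ccnd2*) and 201 (*Ccnd3*). Per kilobase of the longest transcript they were 1245, 3097 and 456.5.

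The summed D-type cyclins per kilobase ranged from 3143 to 3455 with vehicle and from 2842 to 2947 with corticosterone. The summed inhibitors (*Cdkn1a*, *Cdkn1b*, *Cdkn1c*, *Cdkn2c* and *Cdkn2d*) ranged from 4521 to 5297 and from 3894 to 4025. Both sums were lower in all 3 corticosterone libraries. Their ratio, D-type cyclins over inhibitors, was 0.688, 0.652 and 0.712 with vehicle and 0.746, 0.706 and 0.734 with corticosterone, and the groups overlapped. These shares, sums and ratios describe transcripts, depend on the length used and were not tested.

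The genes whose profile over the 6 libraries was most like that of *Myc* were *Kctd10*, *Ltbp4* and *Laptm4b*, out of the 10558 with a mean of at least 100. Likeness was the Euclidean distance between log2 profiles, each centred on its own mean, and was 0.0381, 0.0626 and 0.0635. *Kctd10* held 2158 to 2300 normalized counts with vehicle and 3062 to 3197 with corticosterone. Each of the 3 had its lowest value in vehicle 1, as *Myc* did, which largely follows from how they were picked.

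The partners of these genes in G1 were taken from a list of 24 kinases, E-type cyclins, RB and E2F family members and related genes. Of these, 23 were measured, 3 rose, 4 fell and 16 did not pass, with a median log2 fold change of -0.03. The share past the test, 30.4%, lay near the 32.6% of genes with a mean of at least 100. *E2f6*, a repressor of the E2F family, went from 685 ± 32.7 to 1459 ± 81.5 (log2 fold change 1.09, SE 0.06, adjusted p = 1.3e-09), and was the 1 gene of the list past a log2 fold change of 1. *E2f4* (0.22, adjusted p = 0.008) and *Rbl2*, which encodes the pocket protein p130 (0.20, adjusted p = 0.04), also rose. *E2f6* and *E2f4* passed without each library in turn, whereas *Rbl2* did not pass without any 1 of the 6 (adjusted p from 0.065 to 0.11).

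*Cdk4*, the main kinase partner of D-type cyclins, fell from 9323 ± 105 to 8627 ± 133.5 normalized counts (log2 fold change -0.11, SE 0.04, adjusted p = 0.046). *Rb1* (-0.27, adjusted p = 0.027), *E2f7* (-0.26, adjusted p = 0.042) and the phosphatase gene *Cdkn3* (-0.42, adjusted p = 0.015) fell as well. *Cdk6* (0.13, adjusted p = 0.069), *E2f1* (-0.18, adjusted p = 0.053), *Cdk2* (-0.08, adjusted p = 0.39) and *Rbl1* (-0.10, adjusted p = 0.4) did not pass. The count of 4 lower genes went to 2 without vehicle 1 or vehicle 2, to 0 without vehicle 3 and to 1 without corticosterone 2 or corticosterone 3. *Cdk4* kept its call without vehicle 2 (adjusted p = 0.039) and lost it without any other library (0.061 to 0.18). *Rb1*, *E2f7* and *Cdkn3* lost theirs without vehicle 2 (adjusted p = 0.14, 0.072 and 0.074).

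Of 13 genes of the MYC network, 12 were measured, of which 2 rose and 3 fell (median log2 fold change 0.06). The share past the test was 41.7%, against 16.7% of all genes and 32.6% of those with a mean of at least 100. Of the 6 MAX partners that oppose MYC, a subset that was not a list of its own in the design, 3 fell. Among genes with a mean of at least 100, 15.5% were lower. *Mnt* went from 893 ± 58.05 to 721 ± 46.3 (log2 fold change -0.31, SE 0.07, adjusted p = 0.0033), *Mxd1* changed by -0.40 (adjusted p = 0.002) and *Mxd3* by -0.41 (adjusted p = 0.012). The other 3 did not pass: *Mxd4*, at 8654 ± 890 and 8507 ± 142 normalized counts (-0.02, adjusted p = 0.88), *Mga* (0.06, adjusted p = 0.61) and *Mxi1* (-0.10, adjusted p = 0.61). *Mlx* (0.23, adjusted p = 0.02) and *Mlxip* (0.18, adjusted p = 0.015), partners of each other in sugar sensing, rose. *Max* itself (0.05, adjusted p = 0.66) did not pass, and *Mycn* and *Mycl* were listed at no more than 10.2 normalized counts in any library. Without vehicle 3 the counts were 0 higher and 1 lower. The higher count was 1 without vehicle 1 or vehicle 2, and 0 without corticosterone 3 or with libraries scaled to the same total. *Mxd3* lost its call without vehicle 1, 2 or 3 or corticosterone 1 or 2 (adjusted p from 0.054 to 0.089), and *Mnt* without vehicle 3 (0.057) or corticosterone 3 (0.052).

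Among 16 well-known MYC targets of the nucleolus and of nucleotide and polyamine synthesis, 13 rose, none fell, and all 16 had a log2 fold change above 0 (median 0.30). *Odc1*, ornithine decarboxylase of polyamine synthesis, held 2268, 1936 and 2162 normalized counts with vehicle and 3878, 3866 and 3881 with corticosterone. Its log2 fold change was 0.87 (SE 0.05, adjusted p = 4.6e-09). *Dkc1*, of the H/ACA particles that modify ribosomal RNA, changed by 0.50 (adjusted p = 9.7e-05), *Gnl3*, the nucleolar GTPase nucleostemin, by 0.48 (adjusted p = 6.3e-05), and *Polr1b*, a subunit of RNA polymerase I, by 0.41 (adjusted p = 0.00024). The 3 that did not pass were *Npm1*, *Fbl* and *Nop58*, with log2 fold changes from 0.00 to 0.16. Vehicle 2 was the lowest vehicle library in 15 of the 16. Without it 10 rose, where leaving out each library in turn gave 9 to 11. The log2 fold changes without vehicle 2 were 0.81 for *Odc1*, 0.40 for *Dkc1*, 0.42 for *Gnl3* and 0.34 for *Polr1b*. All of these passed the test (adjusted p up to 0.0016). The share higher over all genes was 8.49%, and 17.1% over genes with a mean of at least 100.

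The 16 other p53 targets moved in both directions: 2 rose, 5 fell and 9 did not pass (median -0.05). The share past the test was 43.8%, against 32.6% of genes with a mean of at least 100. *Plk2*, a polo-like kinase gene, went from 2503 ± 134.5 to 1420.1 ± 52.3 normalized counts (log2 fold change -0.82, SE 0.05, adjusted p = 7.6e-09). *Bbc3*, which encodes the cell death protein PUMA (-0.42, adjusted p = 0.0025), *Eda2r* (-0.42, adjusted p = 0.011) and the stress sensor *Sesn2* (-0.33, adjusted p = 0.001) fell as well. *Btg2*, an antiproliferative gene, rose (0.48, adjusted p = 0.00085), as did *Gadd45a* (0.33, adjusted p = 0.033), although the groups of *Gadd45a* overlapped. *Mdm2*, a target that feeds back on p53, had a log2 fold change of 0.01 (adjusted p = 0.93). Vehicle 2 was the highest vehicle library in 15 of the 16. Without it 4 rose and 4 fell: *Eda2r* lost its call (-0.275, adjusted p = 0.09), while *Plk2* (-0.79), *Bbc3* (-0.30, adjusted p = 0.013), *Sesn2* (-0.26, adjusted p = 0.0066), *Btg2* (0.62, adjusted p = 1.6e-05) and *Gadd45a* (0.46, adjusted p = 0.0024) kept theirs. The higher count was 1 without vehicle 1, corticosterone 1 or corticosterone 2, and 0 without vehicle 3 or corticosterone 3, and the lower count was 2 without vehicle 3 or corticosterone 3.

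Genes of S phase and mitosis mark cycling cells. Of 20 such genes, none rose, 6 fell and 14 did not pass (median -0.14). The share lower was 30%, against 15.5% of genes with a mean of at least 100. *Plk1* (-0.36, adjusted p = 0.0012), *Bub1* (-0.32, adjusted p = 0.0055), *Ccna2* (-0.29, adjusted p = 0.0018) and *Ccnb1* (-0.28, adjusted p = 0.0029) had the largest falls, and *Cdk1* and *Mki67* fell by 0.17 each on the log2 scale. The 14 that did not pass ranged from *Aurka* (-0.21, adjusted p = 0.063) to *Mcm7* (0.05, adjusted p = 0.6). They include the DNA replication genes *Mcm2* to *Mcm7*, *Pcna* and *Rrm2*. Of these, *Mcm6* had the lowest log2 fold change (-0.08, adjusted p = 0.57) and *Mcm7* the highest. *Tk1* (-0.17, adjusted p = 0.066) and *Tyms* (-0.15, adjusted p = 0.069), of nucleotide synthesis, did not pass either. *Cdk1* lost its call without any library but vehicle 2 (adjusted p from 0.071 to 0.15), and *Mki67* without vehicle 1 or 3 or corticosterone 2 or 3 (0.075 to 0.13). Vehicle 1 was the highest vehicle library in 19 of the 20 genes, and vehicle 2 the lowest in 17. Without vehicle 2, 7 of the 20 were lower, and leaving out each library in turn gave 4 to 7. With libraries scaled to the same total, 10 of the 20 were lower.

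Of 12 genes for the degradation of these proteins, 2 were higher, 1 was lower and 9 did not pass (median 0.01). The share past the test, 25%, lay below the 32.6% of genes with a mean of at least 100. *Skp2* and *Fbxw7*, the receptors that mark p27 and MYC for degradation, did not pass, with log2 fold changes of 0.01 (adjusted p = 0.94) and 0.10 (adjusted p = 0.41). The ligase subunit genes *Ddb1* (0.19, adjusted p = 0.0013) and *Skp1a* (0.14, adjusted p = 0.019) rose. The higher count was 1 without vehicle 3, corticosterone 1 or corticosterone 2, and also with libraries scaled to the same total.

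**Figure D4:**
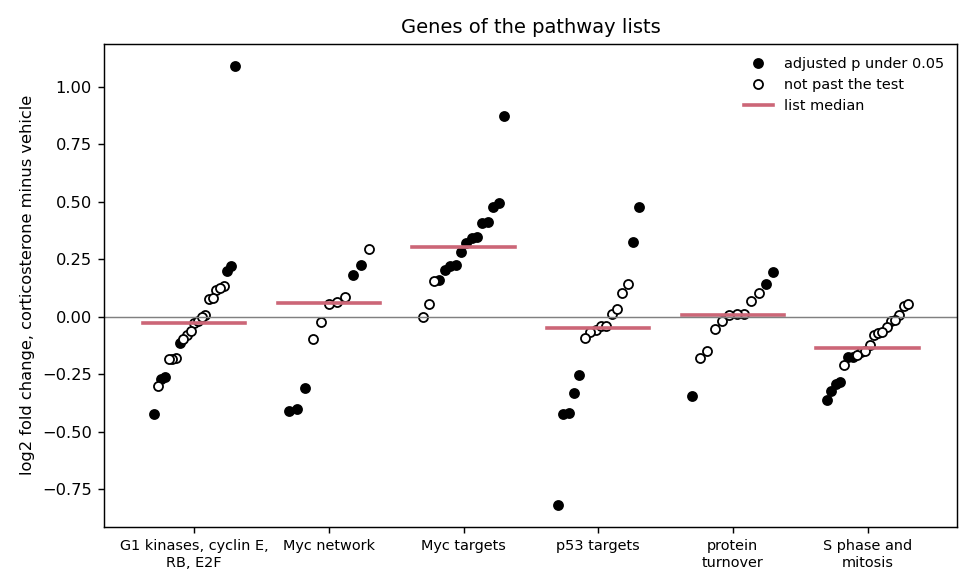
Log2 fold change (vertical axis, corticosterone minus vehicle) of the measured genes of 6 pathway lists, leaving out the point of *Mycn*; filled points passed an adjusted p of 0.05, open points did not, and red lines are the medians of the whole lists, *Mycn* included. The Myc targets lie at or above 0 with a median of 0.30, and the S phase and mitosis genes have a median of -0.14.

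Markers of other cell types were at low levels or moved with the treatment as follows, and their part in the changes of the members was not tested. Of 6 adipocyte markers 2 were measured, and *Fabp4* went from 14.8 ± 6.71 to 121 ± 11.5 normalized counts, while *Plin1* was at 0 in 5 of the 6 libraries; their sum ranged from 7.72 to 21.1 with vehicle and from 108 to 133 with corticosterone. Of 6 chondrocyte markers 5 were measured, with *Col10a1* higher and *Col2a1* and *Sox9* lower (the *Sox9* call held without vehicle 2 and no other library, and that of *Col10a1* was lost without vehicle 3 or corticosterone 1), and summed levels of 3557 to 3964 with vehicle and 3001 to 3023 with corticosterone. Of 6 muscle markers 4 were measured, with none past the test and a sum of 30.9 to 37.2 with vehicle and 39.8 to 42.8 with corticosterone. Of 6 osteoclast and macrophage markers 4 were measured, with *Ctsk* lower, *Cd68* at 28.1 to 33.2 and *Acp5* at 0 in 4 libraries. That sum ranged from 1848 to 2008 with vehicle and from 1456 to 1521 with corticosterone.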

How the data were processed

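RNA-seq libraries of 3 vehicle and 3 corticosterone cultures of differentiated MC3T3-E1 osteoblasts were compared. The authors deposited 1 table, in which each gene has a signal of 0 or more in every library, named FPKM there. Its values are whole multiples of 1 step per library (100% whole within 0.001), hence normalized read counts. The submitters' processing notes name mm10, and the aligner, counter and use of strand are not given in the sources used here.

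The test was limma 3.58.1 (R 4.3.3; lmFit, eBayes with a variance trend) on log2(value + 0.1), with a Benjamini-Hochberg correction. A minimum mean of 0.1 removed no gene. The design had expected FPKM and was kept. Depth and floor are given with the results and cover counting error only. Alternatives were edgeR 4.0.16 and DESeq2 1.42.0 on the recovered reads (DESeq2 is the tool the study's methods name), a replicate block, other pseudocounts, filters and scalings, no variance trend, and each library left out.

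The members, gene lists and tests were chosen with earlier results of these data known. Named are the members, 10 set partners (*Cdk4*, *Cdk6*, *Cdk2*, *Rb1*, *Rbl1*, *Rbl2*, *E2f1*, *Max*, *Mxi1*, *Mnt*), up to 4 genes per list and direction with the largest change among those past the test, hormone response and marker genes, and the 3 genes most like *Myc*. *Cdk1*, *Mki67*, *Aurka*, *Mcm7*, *Npm1*, *Fbl*, *Nop58*, *Mxd4*, *Mga*, *Mycn*, *Mycl*, *Mdm2*, *Skp2* and *Fbxw7* were added after their values were seen. So were *Mcm2* to *Mcm6*, *Pcna*, *Rrm2*, *Tk1* and *Tyms*. Gene models came from GENCODE on GRCm38, which named 23983 of 24016 identifiers. *Cdkn2a* and *Mlxipl* of the lists were not analysed here, and the single-gene result of 1 other list gene is not reported here.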

Additional observations from a re-analysis of the deposited data

How the results depend on the processing

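With 3 libraries per group, modest changes rest on a spread borrowed across genes. *Myc* kept its direction and passed the test under the other 11 settings and without each library in turn (log2 fold change 0.45 to 0.51). Of the 11, the fit with no filter on low values repeats the main fit, since that filter removed no gene. Without the variance trend, 873 genes were higher and 760 lower, against 2040 and 1970. There, 1 member was higher and 0 lower, and *Ccnd2* (-0.27), *Ccnd3* (0.22), *Cdkn1a* (-0.37), *Cdkn1b* (-0.17) and *Cdkn2d* (-0.42) no longer passed. Its list counts were 1 higher and 0 lower (G1 genes), 0 and 0 (MYC network), 2 higher (MYC targets), 0 and 1 (p53 targets), 0 higher (degradation) and 0 lower (S phase and mitosis).

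A pseudocount of 0.01 gave 2 lower G1 genes and 1 higher p53 target, and ended the call of *Cdkn1b* (-0.17). Scaling to the same total gave 1 higher member, *Ccnd3* no longer passing (0.18), with 0 higher in the MYC network, 1 higher p53 target, 1 higher and 2 lower degradation genes and 10 lower S phase and mitosis genes. edgeR called 5 G1 genes higher. Replicate numbers are shared by the groups, and the labels do not say whether they pair the cultures. Over 13880 genes, same-numbered libraries did not deviate together (correlations of -0.044, 0.0014 and 0.023). A correlation over all genes cannot settle this for single genes. With the replicate block, 2012 genes were higher and 1893 lower, and the members' counts stayed at 2 and 4; with the block in edgeR, 5 G1 genes were higher and 2 degradation genes lower.

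Leaving out 1 library at a time, *Cdkn1c* reversed sign without vehicle 2, vehicle 3 or corticosterone 3 (0.02, 0.10 and 0.56; range -2.76 to 0.56), as did *Cdkn2c* without vehicle 2 (0.0102; range -0.0889 to 0.0102). Neither passed in any fit. *Ccnd3* ranged from 0.15 to 0.28 and *Cdkn1b* from -0.22 to -0.13. Over all genes, 1148 to 1611 were lower, and 204 to 321 with a log2 fold change below -1. Higher members numbered 1 to 2, G1 genes lower 0 to 3, MYC network higher 0 to 2 and lower 1 to 2, p53 targets higher 0 to 4 and lower 2 to 5, and degradation genes higher 1 to 2. MYC targets higher numbered 9 to 11, and S phase and mitosis genes lower 4 to 7. *Cdkn1c* had too few reads to be kept by edgeR.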

Other observations

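Among the osteoblast markers, *Bglap*, which encodes osteocalcin, went from 232 ± 33.8 to 63.5 ± 11.4 normalized counts (SD, n = 3; limma, log2 fold change -1.87, adjusted p = 2e-07). *Sp7* and *Runx2*, the transcription factors that set the lineage, fell by 1.34 and 1.16 on the log2 scale, and *Ibsp*, bone sialoprotein, fell by 1.20. *Spp1*, osteopontin, rose, from 102649.7 ± 4555 to 120669 ± 1382 (0.23, adjusted p = 0.00061).

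Of markers of other cell types, *Col2a1*, a cartilage collagen, went from 1297 ± 158 to 744 ± 81.0 (-0.80, adjusted p = 3.5e-06) and *Ctsk*, a cathepsin of osteoclasts that osteoblast-lineage cells can also make, from 1852 ± 88.8 to 1438 ± 31.8 (-0.36, adjusted p = 5.3e-05).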
